A study of Homo sapiens with 8 samples.

Results

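The S100 proteins examined here are small EF-hand proteins, most of which bind calcium, and their mRNAs were followed in 2 human tumour lines, the breast adenocarcinoma line MDA-MB-231 and the fibrosarcoma line HT1080. The family was taken as 10 named genes, S100A2, S100A3, S100A4, S100A6, S100A10, S100A11, S100A13, S100A14, S100A16 and S100P, out of 16922 genes with a named probe. They were found through the gene symbol of the array's annotation, which gave 16 probes of 24526. The set was chosen on the difference between the control-treated lines, which is wide for S100A4, so the comparison of the control arrays is given as a description, with no test. The other members were listed with results of these arrays already known.

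The arrays were Illumina bead arrays in 4 groups of 2. In each line, cells transfected with a scrambled siRNA served as controls for cells whose VRK1 was targeted (siVRK1). VRK1 is a kinase of the nucleus whose substrates include histone H3 and the transcription factors JUN, ATF2 and CREB1. A single siRNA sequence, numbered 308, was used for the knockdown. All cells were cultured for 24 h with 10% fetal bovine serum and then for 42 h with the siRNA and a lipid transfection reagent, which the control cells received as well. The labels do not say whether the replicates were separate cultures, so p-values measure only the spread between these arrays, which may be technical. Each line stands for 1 tumour.

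Values are log2 intensities, and 1 unit is a doubling of the signal. Every array had a median of 5.93 log2 over its probes, and replicate arrays correlated with r from 0.991 to 0.995. A probe was taken as measurable when its highest group mean reached 6.08 log2, the median of that quantity over all probes, here called the filter level. No background was subtracted here, and the deposited values have a floor near the array median, so differences that involve a level near it are understated. Levels of different probes are not comparable, since each probe binds with its own strength. The number of arrays limits the precision. In MDA-MB-231 the differences between replicate 2 and replicate 1 were partly shared by the control and siVRK1 groups (r = 0.485 over 9451 genes). In HT1080 they were not (r = -0.0485). On the MDA-MB-231 arrays of replicate 2, 16 genes lay 1 log2 or more above replicate 1 in both groups, against 0 genes in HT1080. S100P was among the 16.

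As a check of the labels, VRK1 mRNA was lower wherever it was targeted. Control MDA-MB-231 cells read 7.93 and 7.61 log2 and their siVRK1 arrays 6.23 and 6.74, while HT1080 went from 7.84 and 7.88 to 6.57 and 6.51. VRK1 fell in each line, by the limma fit. The change in MDA-MB-231 was -1.28 log2 (adjusted p = 0.0117, SE 0.17) and that in HT1080 was -1.32 log2 (adjusted p = 0.0240, SE 0.17). The HT1080 call was lost without any 1 of its 4 arrays, with values from -1.35 to -1.29 and adjusted p from 0.269 to 0.337, and the MDA-MB-231 call without HT1080 control replicate 1 (adjusted p = 0.0518) or 2 (adjusted p = 0.0513). The lines' identity was checked with marker genes. Of 11 epithelial markers 7 reached the filter level, whereas EPCAM, DSP, GATA3 and ESR1 did not. In control cells 5 of the 7 were lower in HT1080 by the limma test and 0 higher (27.5% and 26.2% of all genes). KRT7, KRT19, CLDN7 and JUP reached the filter level in MDA-MB-231 alone, so the filter set their direction. Nothing is read from these counts. KRT8 lay above the level in both lines, at 9.14 and 8.95 log2 in control MDA-MB-231 cells and 7.61 and 7.63 in control HT1080 cells. The keratin KRT19 read 10.92 and 11.12 log2 in control MDA-MB-231 cells and 5.78 and 5.69 in control HT1080 cells. KRT18 differed little, at 7.59 and 7.65 against 7.51 and 7.38. CDH1 reached the filter level only in siVRK1 MDA-MB-231 cells. Of 10 mesenchymal markers 6 reached it. VIM lay between 11.39 and 12.12 log2 on all arrays of both lines, and SPARC and CDH2 were high in HT1080 only (SPARC 10.45 and 10.29 log2 in control HT1080 cells, 5.64 and 5.68 in control MDA-MB-231 cells), while COL1A2 was lower in HT1080 (-0.49 log2, limma adjusted p = 0.0128), VIM (-0.12), COL1A1 (-0.04) and ZEB1 (0.01) were not called, and FN1, THY1, COL3A1 and FAP stayed below the filter level in both lines. The mean level of the 11 epithelial markers lay between 7.52 and 7.63 log2 in control and between 7.70 and 7.80 in siVRK1 MDA-MB-231 cells, against 6.06 to 6.11 in HT1080. That of the mesenchymal markers lay between 6.48 and 6.58 log2 in MDA-MB-231 and between 7.36 and 7.43 in HT1080, a difference that rests on SPARC and CDH2, since the median over the 6 measurable markers was -0.01 log2 in control cells. SPARC reached the filter level in HT1080 alone and COL1A2 in MDA-MB-231 alone, so the filter set their directions too. The part of the markers in the S100 differences between the lines was not tested. Of 7 leukocyte markers with a probe 4 reached the filter level. In control cells CD14 (8.18 and 7.88 log2 against 5.74 and 6.09), LAPTM5 (8.49 and 8.45 against 6.88 and 6.91) and CSF1R (6.89 and 6.26 against 6.05 and 5.97) were higher in MDA-MB-231, and CD68 (8.88 and 8.91 against 9.82 and 10.01) was higher in HT1080. The pan-leukocyte marker PTPRC, the T cell marker CD3E and the myeloid marker ITGAM were the 3 below it.

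S100 proteins usually act as dimers. Calcium opens the dimer, which then binds a target protein, and different members have different targets, including annexins, myosin, ezrin and the receptor AGER. Most of the genes lie in a cluster on chromosome 1, with S100P on chromosome 4. Of the S100 genes examined, 17 lie on chromosome 1 in the order S100A10, S100A11, S100A9, S100A12, S100A8, S100A7A, S100A7L2, S100A7, S100A6, S100A5, S100A4, S100A3, S100A2, S100A16, S100A14, S100A13 and S100A1. In breast and other carcinomas S100A4 and S100P have been studied for their part in cell movement and metastasis.

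Of the 10 members, 9 reached the filter level and 13 of their probes did. S100A14, a member of epithelia, did not. It read between 5.69 and 5.84 log2 on all 8 arrays. S100P reached the level in MDA-MB-231 alone, and S100A3 did so in HT1080 only by a small margin, so these differences between the lines rest on a level at or near background on 1 side. The 11 other S100 genes with a probe were nearly all dim. The highest was S100A1, at 6.24 and 6.01 log2 in control HT1080 cells, which reached the filter level in that group alone. S100A8 and S100A9, which together form calprotectin in myeloid cells, read between 5.53 and 5.84 log2, and S100B between 5.56 and 5.81.

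**Figure D1:**
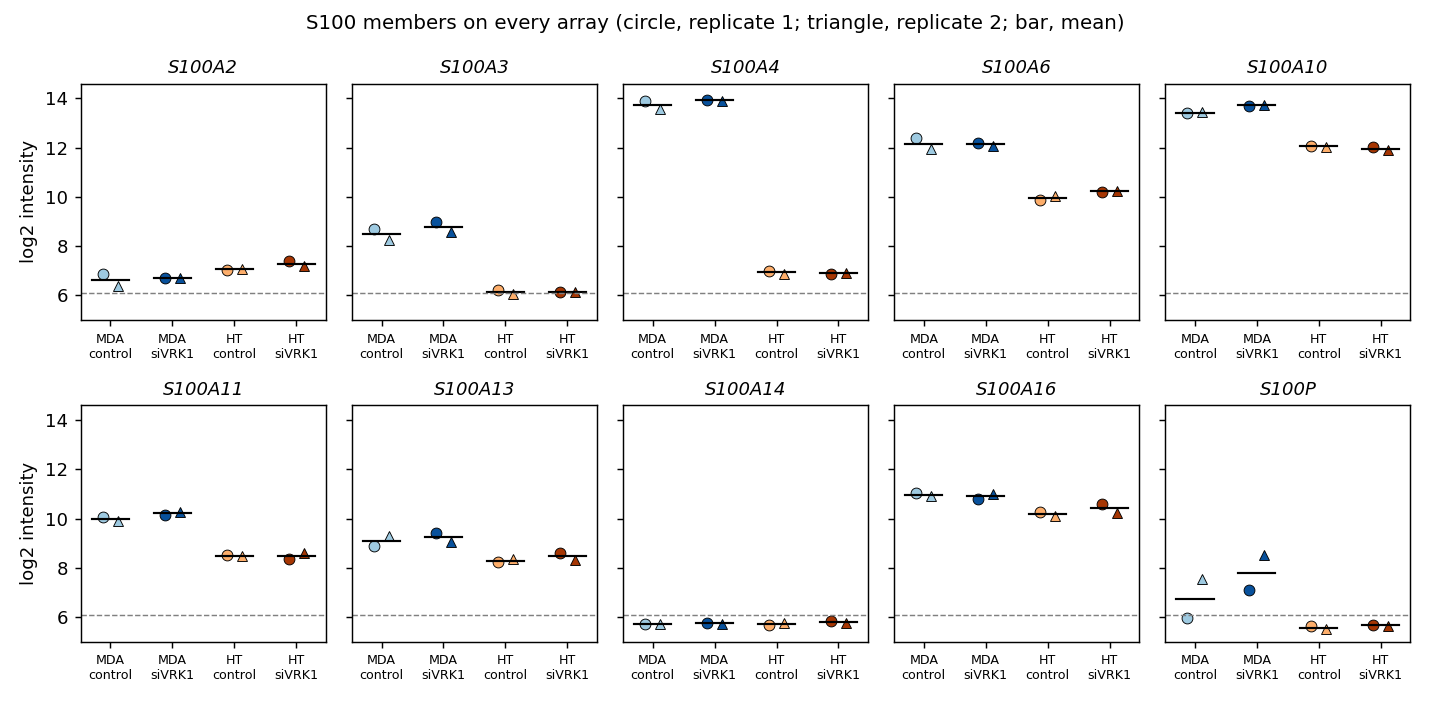
Level of each S100 member on every array, as log2 intensity of the probe that stands for the gene (for S100A14 its only probe). The x axis gives the 4 groups (MDA, MDA-MB-231; HT, HT1080), circles are replicate 1, triangles replicate 2, bars the group means, and the dashed line is the filter level of 6.08 log2. S100A4 lies above 13 log2 in MDA-MB-231 and below 7 log2 in HT1080, S100A14 lies below the filter level in all groups, and S100P differs between replicates in MDA-MB-231.

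S100A4, which binds non-muscle myosin heavy chain MYH9 and promotes cell movement, had by far the widest difference of the members. Its main probe read 13.90 and 13.57 log2 on the MDA-MB-231 control arrays and 6.98 and 6.89 on the HT1080 control arrays. On the siVRK1 arrays it read 13.94 and 13.90 in MDA-MB-231 and 6.88 and 6.90 in HT1080. The groups of the lines lay far apart under both treatments. In control cells the difference was -6.80 log2, HT1080 minus MDA-MB-231, which is a 111-fold higher signal in MDA-MB-231. Fewer cells with the mRNA and less of it per cell cannot be told apart in RNA from whole cultures. A second probe of S100A4 read 12.88 and 12.73 log2 in control MDA-MB-231 cells and 6.22 and 6.33 in control HT1080 cells, a difference of -6.52 log2. Over the 9451 genes tested, only 1 other gene was lower in HT1080 by as much. Genes whose HT1080 level lies at the floor have a difference cut off there, so this rank depends on the floor.

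That gene was IGFBP4, a binding protein of insulin-like growth factors, which also had the profile most like that of S100A4 over the 8 arrays (Euclidean distance 0.34 log2 after each gene was centred on its mean). Its control mean was 12.89 log2 in MDA-MB-231 cells against 5.89 in HT1080 cells. The next genes by this distance were PLAAT4, a phospholipid-metabolising enzyme (2.13), MARCKS, a substrate of protein kinase C (2.20), VAMP8, a vesicle fusion protein (2.21), and CYBA, a subunit of the NADPH oxidases (2.37). All 5, IGFBP4 included, were below the filter level in HT1080, with control means from 5.70 to 5.89 log2. The genes were centred but not scaled, so the distance mostly follows the size of the difference between the lines. It is not a likeness apart from that difference.

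The other members differed less between the control-treated lines. S100A3, best known from the hair cuticle, lies next to S100A4 on the chromosome. It read 8.71 and 8.27 log2 in MDA-MB-231 and 6.23 and 6.07 in HT1080, a difference of -2.34 log2. S100A6, or calcyclin, on the far side of S100A5, read 12.38 and 11.94 log2 against 9.87 and 10.06, a difference of -2.19. In all of these the arrays of the lines did not overlap, with HT1080 lower, as was so for 38.7% of all genes. S100A5, which lies between S100A6 and S100A4, read from 5.51 to 6.10 log2 on all arrays and did not reach the filter level.

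S100A10, the annexin A2 partner that has lost the ability to bind calcium, read 13.39 and 13.45 log2 in control MDA-MB-231 cells and 12.08 and 12.03 in control HT1080 cells, a difference of -1.36 log2. S100A11, a partner of annexin A1, read 10.08 and 9.89 log2 against 8.52 and 8.47, a difference of -1.49. These genes lie next to each other at the end of the cluster. Their arrays did not overlap between the lines, with HT1080 lower, as was so for 38.7% of all genes. S100A16, a widely expressed member, read 11.03 and 10.91 log2 against 10.28 and 10.11, a difference of -0.78. S100A13, which takes part in the release of FGF1, differed by -0.79 log2, from 8.87 and 9.30 to 8.23 and 8.37.

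S100A2, a member of epithelial cells that is often lost in breast tumours, ran the other way. It read 6.85 and 6.39 log2 in control MDA-MB-231 cells and 7.02 and 7.09 in control HT1080 cells, a difference of 0.44 log2, which was 0.20 without MDA-MB-231 control replicate 2 and 0.67 without control replicate 1. It was the 1 member of the 9 that was higher in HT1080, although it lies between S100A3 and S100A16, which were both lower there. S100P, a ligand of AGER and a partner of ezrin, read 5.96 and 7.54 log2 in control MDA-MB-231 cells and 5.63 and 5.52 in control HT1080 cells. The MDA-MB-231 replicates of S100P differed by more than the groups did, and 1 of them lay below the filter level. The difference was -1.17 log2, HT1080 minus MDA-MB-231, and it was -1.96 without MDA-MB-231 control replicate 1 and -0.39 without control replicate 2. Among all genes tested, 38.7% had control arrays that did not overlap and were lower in HT1080, and the same share, 38.7%, had control arrays that did not overlap and were higher.

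The difference between the lines was tested on the siVRK1 arrays, which are not in the control contrast that the set was chosen on. Results of these arrays were known too when the members were listed, so this test is not independent of the choice. All 9 measurable members differed there (limma on the 4 siVRK1 arrays, adjusted over 9460 genes), but so did 55.1% of all genes, 28% lower and 27.1% higher in HT1080. The arrays of the lines did not overlap for any of the 9, with 8 members lower (39.3% of all genes) and 1 higher in HT1080 (39.8%). For the same reason nothing is read from these counts, and the sizes are given as they are. S100A4 differed by -7.03 log2 (95% confidence interval -7.28 to -6.79, adjusted p = 4.25e-08), a 131-fold higher signal in MDA-MB-231, and its second probe by -6.83 log2. S100A3 differed by -2.62 log2 (SE 0.15, adjusted p = 6.98e-06), from 8.99 and 8.56 in MDA-MB-231 to 6.15 and 6.16 in HT1080. S100A6 differed by -1.90 (SE 0.11), S100A10 by -1.76 (SE 0.11) and S100A11 by -1.72 (SE 0.13), with adjusted p from 5.66e-06 to 2.41e-05.

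S100P differed by -2.14 log2 (SE 0.39, adjusted p = 0.00239), with 7.08 and 8.53 in MDA-MB-231 and 5.69 and 5.64 in HT1080. It reached the filter level in MDA-MB-231 alone, so the filter set its direction and nothing is read from its test. Its interval, from -3.04 to -1.25 log2, was the widest among the members, and the difference was -1.42 without MDA-MB-231 siVRK1 replicate 2, -2.87 without replicate 1 and -3.38 after background subtraction. S100A13 differed by -0.77 (SE 0.15, adjusted p = 0.00382) and S100A2 by 0.56 (SE 0.12, adjusted p = 0.00463). S100A2 read 6.73 and 6.71 log2 in MDA-MB-231 and 7.38 and 7.19 in HT1080, so its direction was that of the control arrays. S100A16 differed by -0.48 (SE 0.15, adjusted p = 0.0248). Its call was lost without MDA-MB-231 siVRK1 replicate 2 (-0.39, adjusted p = 0.0931) and without HT1080 siVRK1 replicate 2 (-0.31, adjusted p = 0.176). The median difference of the members was -1.76 log2, against 0.00415 log2 over all genes tested. Since the members were listed with results of these arrays known, nothing is read from this gap.

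**Figure D2:**
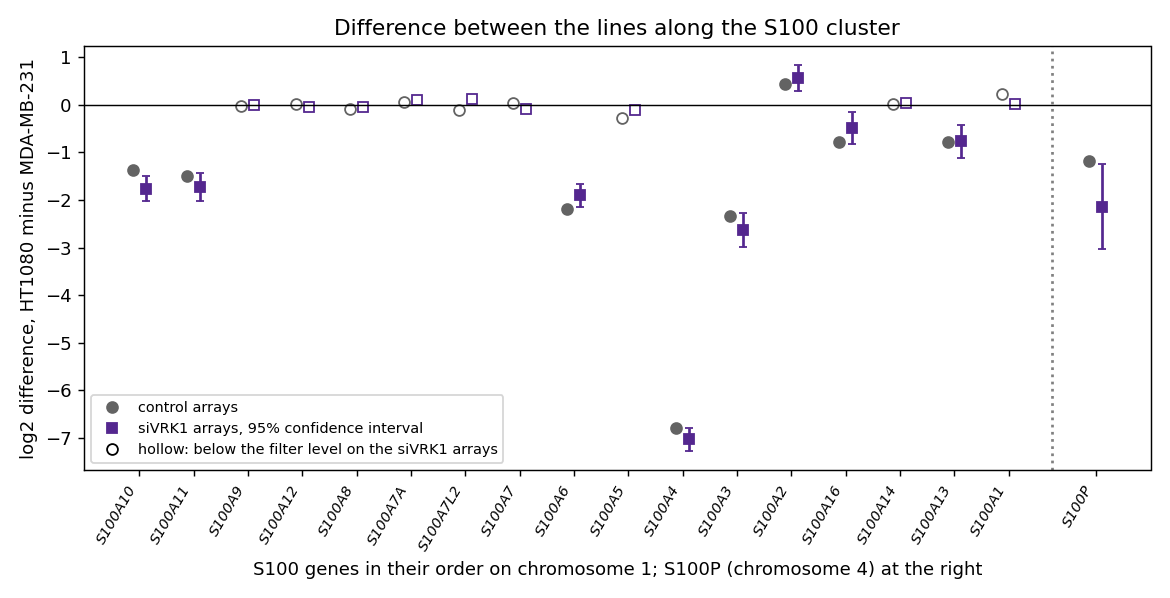
Difference between the lines for the S100 genes, in log2 (HT1080 minus MDA-MB-231), with the genes of chromosome 1 in their order on the x axis and S100P of chromosome 4 at the right. Circles are the control arrays, shown without a test, squares the siVRK1 arrays with 95% confidence intervals, and hollow symbols are genes below the filter level on the siVRK1 arrays. S100A4 lies at -6.80 and -7.03, its neighbour S100A3 at -2.34 and -2.62, and S100A2 is the 1 filled symbol pair above 0.

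The gene start regions of S100A4, S100A3, S100A6 and S100P are shown because these genes had the widest differences between the lines on the siVRK1 arrays. They are from RefSeq (GRCh38.p14), which had a window for all 10 members, and run from 250 bases before to 50 bases after the annotated start. Capitals mark the motifs searched on both strands, any overlap between them being allowed. The TATA box, searched as TATAAA, was in 11.5% of the 35114 windows of this length. The AP-1 element, searched as TGANTCA, was in 7.71% of them. The cAMP response element, searched as TGACGTCA, was in 1.85%. The GC box, searched as GGGCGG, was in 45% of the windows. AP-1 and the cAMP response element were searched because VRK1 phosphorylates factors that bind them. S100A4 (chr1:153545757-153546056, minus strand) had 1 TATA box, 31 bases before the start, and 8 CpG dinucleotides. S100A3 (chr1:153549209-153549508, minus strand) had 1 AP-1 element, 1 GC box and 5 CpG. S100A6 (chr1:153535942-153536241, minus strand) had 3 GC boxes, 2 of which overlap, and 31 CpG. S100P (chr4:6693628-6693927, plus strand) had 1 TATA box, 28 bases before the start, and 5 CpG.
S100A4: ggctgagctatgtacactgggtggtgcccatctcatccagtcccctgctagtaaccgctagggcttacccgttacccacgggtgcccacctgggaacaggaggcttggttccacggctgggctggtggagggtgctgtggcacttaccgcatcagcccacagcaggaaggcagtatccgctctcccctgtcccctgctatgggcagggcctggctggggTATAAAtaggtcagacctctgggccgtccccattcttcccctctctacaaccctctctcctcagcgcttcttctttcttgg
S100A3: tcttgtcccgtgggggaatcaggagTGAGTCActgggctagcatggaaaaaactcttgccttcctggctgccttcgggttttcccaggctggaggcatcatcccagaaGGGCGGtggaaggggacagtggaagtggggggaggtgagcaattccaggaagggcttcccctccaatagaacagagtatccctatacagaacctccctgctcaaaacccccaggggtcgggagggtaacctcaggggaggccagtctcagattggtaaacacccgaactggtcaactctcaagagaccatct
S100A6: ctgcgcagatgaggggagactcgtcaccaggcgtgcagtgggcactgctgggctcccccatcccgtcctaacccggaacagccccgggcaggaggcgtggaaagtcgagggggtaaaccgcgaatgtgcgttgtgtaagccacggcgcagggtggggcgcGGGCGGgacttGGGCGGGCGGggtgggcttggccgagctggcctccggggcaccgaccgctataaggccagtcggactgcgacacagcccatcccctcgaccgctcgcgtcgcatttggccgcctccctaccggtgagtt
S100P: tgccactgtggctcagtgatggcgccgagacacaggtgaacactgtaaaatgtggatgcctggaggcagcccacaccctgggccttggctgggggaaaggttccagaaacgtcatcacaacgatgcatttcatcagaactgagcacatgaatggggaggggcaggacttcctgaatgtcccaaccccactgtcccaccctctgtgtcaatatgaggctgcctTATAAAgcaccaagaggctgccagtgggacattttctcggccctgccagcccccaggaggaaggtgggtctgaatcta

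The median window held 14 CpG dinucleotides. S100A4, S100A3 and S100P lay below it, with fewer CpG in 39.3%, 29.6% and 29.6% of all windows, whereas S100A6, S100A10 (32 CpG) and S100A11 (22 CpG) lay above it. Low counts were not particular to these genes. The windows of S100A2 (4 and 5 CpG), S100A14 (5), S100A16 (8 and 3) and 2 of the 3 of S100A13 (12 and 11, the other 19) were below the median too. No window of a member held TGACGTCA, and besides S100A3 the AP-1 letters were found only in 1 of the 2 windows of S100A2, 52 bases before the start. These are matches of letters in a short window and say nothing of whether a factor binds there.

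The effect of VRK1 knockdown was compared within each line. These comparisons use the same control arrays as the comparison that singled out S100A4. In MDA-MB-231 0 of 9 measurable members passed the limma test adjusted over all genes, against 94 of 9451 genes (0.995%, with 0.476% higher and 0.518% lower), so a count of 0 is near the background. S100A10 came nearest. Its controls read 13.39 and 13.45 log2 and the siVRK1 arrays 13.68 and 13.74, a difference of 0.29 log2 (SE 0.10, 95% confidence interval 0.06 to 0.53), with an unadjusted p of 0.0174 and a limma adjusted p of 0.241. It was the 1 member at an unadjusted p under 0.05, a level that 1244 of all genes reached. S100A10 and S100A11 had siVRK1 arrays wholly above the control arrays, as did 20.4% of all genes, and 0 members had them wholly below, as 18.8% of all genes did.

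S100A4 read 0.19 log2 higher under siVRK1 in MDA-MB-231 (SE 0.12, adjusted p = 0.592), with an interval from -0.09 to 0.47 and arrays that met at 13.90 log2. Its second probe read 0.21 higher. S100A3 was at 0.29 (SE 0.17, adjusted p = 0.539) and S100A11 at 0.23 (SE 0.12, adjusted p = 0.475), the latter with 10.15 and 10.27 log2 against 10.08 and 9.89. The intervals leave room for a rise of S100A4 by up to 0.47 log2 and of S100A3 by up to 0.68 log2, and a fall of either by more than 0.10 log2 lies outside them. S100A13 (0.15), S100A2 (0.10), S100A6 (-0.03) and S100A16 (-0.06) were closer to 0.

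S100P had the widest value and the widest error. On the MDA-MB-231 arrays it went from 5.96 and 7.54 log2 to 7.08 and 8.53, a difference of 1.06 log2 (SE 0.49, unadjusted p = 0.0573, limma adjusted p = 0.400, interval -0.04 to 2.16). The arrays of the groups overlapped, since control replicate 2 read higher than siVRK1 replicate 1. The replicates lay 1.57 log2 apart in the control group and 1.45 in the siVRK1 group, with replicate 2 higher in both. Only 13 and 3 of the 9451 genes, S100P included, had replicates as far apart. In this line the value was 0.27 without control replicate 1 and 1.85 without control replicate 2. It was 1.78 without siVRK1 replicate 1 and 0.33 without siVRK1 replicate 2. Since replicate 2 read higher in both groups, these values carry the difference between replicates too. A fit with a replicate block within each line, chosen after seeing the data, called S100P and is given with the processing below.

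In HT1080 the knockdown also left 0 of 9 members called, of which S100P was below the filter level in both groups there and says nothing, against 29 of 9451 genes (0.307%, with 0.0846% higher and 0.222% lower). S100A6 went from 9.87 and 10.06 log2 to 10.22 and 10.24, a difference of 0.26 log2 (SE 0.15, limma adjusted p = 0.607). S100A2 went from 7.02 and 7.09 to 7.38 and 7.19, a difference of 0.23 (SE 0.15, adjusted p = 0.682). The groups did not overlap for either gene, but 23.2% of all genes had siVRK1 arrays wholly above the control arrays in this line. S100A16 was at 0.23 and S100A13 at 0.17, with overlapping arrays.

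S100A4 was low in HT1080 under siVRK1 as well, at 6.88 and 6.90 log2 against 6.98 and 6.89 in control cells (-0.04, SE 0.12, adjusted p = 0.959). S100A3 (0.00), S100A11 (-0.01) and S100P (0.09) were near 0 as well, S100P at a background level in both groups. S100A3 lay only just above the filter level in both groups, where differences are understated. S100A10 read 12.02 and 11.89 log2 against 12.08 and 12.03, a difference of -0.11 (SE 0.10, adjusted p = 0.816). Its siVRK1 arrays lay wholly below the controls, as did those of 21.8% of all genes. No member reached an unadjusted p under 0.05 in HT1080, where 981 of all genes did.

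**Figure D3:**
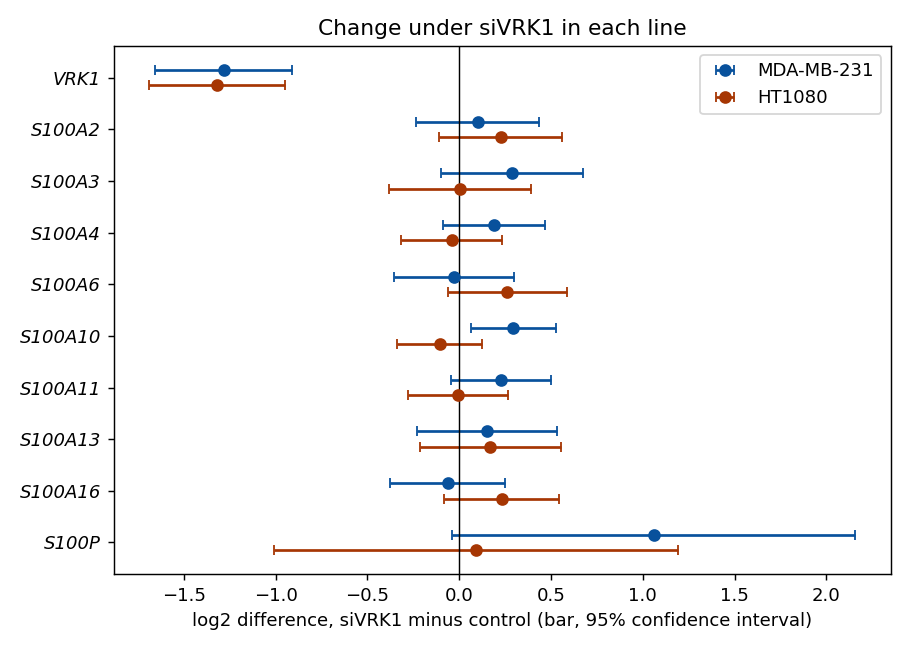
Change of the measurable S100 members and of VRK1 under siVRK1, in log2 (siVRK1 minus control), in MDA-MB-231 (blue) and HT1080 (orange). Points are the limma estimates from 2 arrays per group and bars the 95% confidence intervals. VRK1 lies at -1.28 and -1.32, all member intervals but that of S100A10 in MDA-MB-231 include 0, and those of S100P are the widest.

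Averaged over both lines, all 9 members had a positive value, from 0.07 log2 (S100A4) to 0.57 (S100P), with a median of 0.12 against 0.00 over all genes, of which 51.7% were positive. None passed the test (limma adjusted p from 0.474 to 0.749), against 240 genes called (2.54%, with 0.963% higher and 1.58% lower), and 0 members reached an unadjusted p under 0.05. The test of the difference in change between the lines called 0 members and 0 of 9451 genes (0%), while 582 genes had an unadjusted p under 0.05. The lowest p among the members was that of S100A10, with -0.40 log2, HT1080 change minus MDA-MB-231 change (SE 0.15, unadjusted p = 0.0211, limma adjusted p = 0.760). For S100P the difference was -0.97 (SE 0.70, adjusted p = 0.871). S100P was below the filter level in both HT1080 groups, so this value and its average of 0.57 each include a change at background level. The sign over all members was not fixed. S100A4 averaged -0.01 without MDA-MB-231 control replicate 2, and S100A16 -0.0036 without HT1080 siVRK1 replicate 1.

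S100A13 was the 1 member with many probes, 6 in all, which the annotation ties to 5 transcript accessions. The probe that stands for the gene and a second probe of the same accession, the latter at 7.87 and 7.59 log2 in control MDA-MB-231 cells and 7.05 and 7.17 in control HT1080 cells, were both lower in HT1080 (-0.79 and -0.62 log2 in control cells). A further probe was lower by -0.50, at 6.97 and 6.84 against 6.51 and 6.30. Another probe just above the filter level ran the other way, at 0.16 in control cells, from 5.88 and 5.97 to 6.05 and 6.12. The other 2 probes stayed below the filter level, with differences of -0.01 and 0.08. On the siVRK1 arrays, with every measurable probe tested on its own, the S100A13 differences were -0.77, -0.89, -0.31 and 0.18 log2 (limma adjusted p = 0.00368, 0.00194, 0.0439 and 0.218). The 3 probes with the higher levels were lower in HT1080, and the probe near the filter level did not pass the test.

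Annexins, the calcium- and membrane-binding partners of S100A10, S100A11 and S100A6, were mostly lower in HT1080. Of 12 listed genes 10 were measurable, and all 10 had a lower value in control HT1080 cells, with a median of -0.52 log2 against 0.00 over all genes. There 6 were lower by the limma test, which called 53.7% of all genes, 27.5% lower and 26.2% higher. The lowest were ANXA3 (-0.83), ANXA5 (-0.80) and ANXA7 (-0.63, with ANXA10 also at -0.63), and the highest ANXA6 (-0.09), ANXA2 (-0.17) and ANXA11 (-0.22). ANXA3 and ANXA8 reached the filter level in MDA-MB-231 alone, so the filter set their direction, and their HT1080 side is at background. On the siVRK1 arrays 8 were lower and 0 higher (28% and 27.1% of all genes). ANXA3 differed by -0.97 log2, ANXA5 by -0.83 and ANXA7 by -0.68 there, while ANXA8 (-0.66) has close paralogues that a probe may not separate. ANXA2, the partner of S100A10, differed by -0.32 (adjusted p = 0.0336) on the siVRK1 arrays, and by -0.17 in control cells, where it was not called. ANXA1, the partner of S100A11, differed by -0.59 and -0.62. The highest values on the siVRK1 arrays were those of ANXA10 (0.21), ANXA6 (-0.01) and ANXA2.

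Under siVRK1 in MDA-MB-231 1 annexin changed. ANXA10 fell from 6.78 and 7.11 log2 to 6.26 and 6.21, by 0.71 log2 (limma adjusted p = 0.0347), and both siVRK1 arrays lay near the filter level. The call was lost without any 1 of 7 arrays, all but MDA-MB-231 control replicate 1, with adjusted p from 0.0778 (without MDA-MB-231 control replicate 2) to 0.117 (without siVRK1 replicate 1 of that line), and with the 4 arrays of the line alone (adjusted p = 0.289). ANXA11, a partner of S100A6, was at 0.39 (adjusted p = 0.152) and ANXA4 at 0.34 (adjusted p = 0.299). The median of the 10 annexins was 0.14 log2. In HT1080 0 annexins were called, with a median of 0.09, and the values furthest from 0 were those of ANXA4 (0.27), ANXA7 (0.14) and ANXA10 (0.13).

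Of 33 other S100 partners and receptors 22 were measurable. The receptor AGER was not, while TLR4, also named as an S100 receptor, read 6.98 and 7.24 log2 in control MDA-MB-231 cells. In control cells 13 of the 22 were higher in HT1080 and 5 lower (26.2% and 27.5% of all genes), with a median of 0.39 log2. The lowest were PLAT, the tissue plasminogen activator (-1.80), MYH9, the myosin heavy chain bound by S100A4 (-1.03), and DLC1, a tumour suppressor that binds S100A10 (-0.78). DLC1 reached the filter level in MDA-MB-231 alone, and MDM2 and FGF1 in HT1080 alone, so the filter set their directions. The highest were HLTF, a chromatin remodeller bound by the S100A10 and annexin A2 complex (1.54), PPFIBP1, a liprin bound by S100A4 (1.43), and PLAU, the urokinase plasminogen activator (1.23). On the siVRK1 arrays 11 were higher and 8 lower (27.1% and 28% of all genes), with PLAT at -2.08, MYH9 at -1.04, DLC1 at -0.74, PLAU at 1.88, HLTF at 1.71 and ASIC1, an acid-sensing ion channel, at 1.12.

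PLAU was the 1 partner called under siVRK1. In MDA-MB-231 it fell from 11.25 and 11.02 log2 to 10.03 and 10.05, by 1.10 log2 (limma adjusted p = 0.0144). In HT1080 it read 12.14 and 11.69 against 12.40 and 12.33, a difference of -0.45 that was not called, and averaged over both lines it fell by 0.77 (adjusted p = 0.0071). The MDA-MB-231 call was lost without control replicate 1 (-0.98, adjusted p = 0.0517) or siVRK1 replicate 1 (-1.09, adjusted p = 0.0588) of that line and without HT1080 control replicate 1 (adjusted p = 0.0619) or 2 (adjusted p = 0.0615), and with the 4 arrays of the line alone (adjusted p = 0.121). The averaged call was lost without HT1080 control replicate 1 (adjusted p = 0.0631) or 2 (adjusted p = 0.0584). PLAU is a plasminogen activator, while S100A10 holds plasminogen at the cell surface. Beside PLAU the values furthest from 0 in MDA-MB-231 were HLTF at -0.44 and PLAT at 0.41, and in HT1080 PPFIBP1 at -0.46 and ASIC1 at 0.34. Over the 22 genes the median change was 0.06 log2 (MDA-MB-231) and -0.04 log2 (HT1080).

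Other EF-hand genes, outside the S100 family, gave a mixed picture. Of 21 listed, 16 were measurable, and in control cells 3 were higher and 8 lower in HT1080 (26.2% and 27.5% of all genes). GCA, or grancalcin (-2.45), CAPNS1, the small calpain subunit (-1.38), and CIB1, an integrin-binding protein (-0.80), were lowest, and SDF4 (0.85), PDCD6 (0.80) and SRI, or sorcin (0.73), were highest. On the siVRK1 arrays 3 were higher and 7 lower (27.1% and 28% of all genes), with GCA at -2.60, CAPNS1 at -1.37 and CAPN1 at -0.95, and with SDF4 at 0.81, PDCD6 at 0.55 and SRI at 0.46. Under siVRK1 SRI rose in MDA-MB-231 from 7.94 and 7.94 log2 to 8.47 and 8.46, by 0.53 log2 (limma adjusted p = 0.0436), and it was at 0.26 in HT1080, where it was not called. The SRI call was lost when any 1 of the 8 arrays was left out (adjusted p from 0.0875 to 0.172), and with the mean of its probes the value was 0.24 (adjusted p = 0.349). Averaged over both lines SRI was at 0.40 (limma adjusted p = 0.0232). That call was lost with the mean of its probes (0.21, adjusted p = 0.197) and after background subtraction (0.44, adjusted p = 0.0551). It was also lost without either MDA-MB-231 siVRK1 array or without any 1 HT1080 array, with values from 0.37 to 0.43. NUCB2 (-0.74) and STIM1 (0.35) in MDA-MB-231, and CHP1 (0.42), NUCB2 (-0.33) and PPP3R1 (-0.29) in HT1080, were not called.

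Genes beside the S100 cluster on chromosome 1 differed less than its most variable members. Of 10 listed 6 were measurable, and 4 were lower and 0 higher in control HT1080 cells (27.5% and 26.2% of all genes), with INTS3, a subunit of the Integrator complex, at -0.86, GATAD2B at -0.42 and SNAPIN at -0.38 log2, and SLC27A3 (-0.01), CHTOP (-0.23) and ILF2 (-0.33) highest. On the siVRK1 arrays 2 were lower (28% of all genes), INTS3 (-0.98) and GATAD2B (-0.53), while SLC27A3 was at 0.21. SNAPIN reached the filter level in MDA-MB-231 alone, so the filter set its direction between the lines. None of the 6 was called under siVRK1 in either line. Of the S100-fused-type genes, which carry an S100 domain in a long repeat protein of the skin, FLG and CRNN reached the filter level and neither was called in any comparison.

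**Figure D4:**
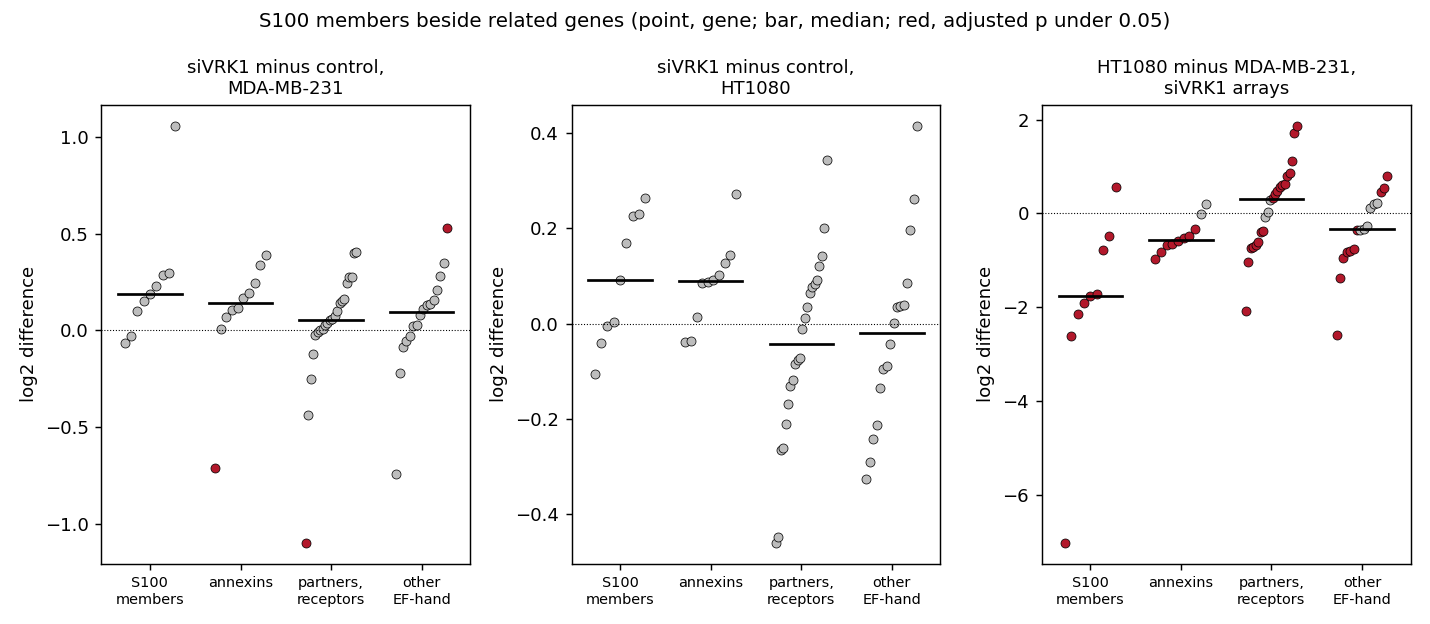
Log2 differences of the measurable S100 members, annexins, other S100 partners and receptors, and other EF-hand genes, under siVRK1 in MDA-MB-231 (left), under siVRK1 in HT1080 (middle) and between the lines on the siVRK1 arrays (right), with a y axis of its own in each panel. Each point is a gene, bars are medians, and red marks an adjusted p under 0.05. No S100 member is red in the siVRK1 panels, where ANXA10, PLAU and SRI are red in MDA-MB-231, and in the right panel S100A4 lies far below all other points, at -7.03.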

How the data were processed

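RNA from 8 samples was measured on Illumina bead arrays, 2 per group. The authors deposited 1 table of log2 intensity values for 24526 probes, made with GenomeStudio per the submitters' processing notes. Background correction and normalization are not given in the sources used here, and the near-identical distributions of the arrays were left as they are. Gene symbols came from the platform annotation (21834 probes with 1 symbol, 0 with several, 2692 with none), updated through the RefSeq gene table.

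Probes whose highest group mean reached the median of that quantity (6.08 log2) were kept, 12263 in all, and each of 9451 genes was represented by its probe with the highest mean. limma 3.58.1 in R 4.3.3 fitted 4 group means over 8 arrays (residual df 4), with Benjamini-Hochberg adjustment over all genes and a threshold of 0.05. The siVRK1 arrays alone were fitted for the tested line difference (9460 genes, filter level 6.05). The fit of the siVRK1 change in MDA-MB-231 was also run on simulated data with independent noise. Such noise lacks the replicate difference that the MDA-MB-231 groups partly shared, so nothing is read from that run for these arrays. Members, gene lists and tests were chosen with earlier results of these data known. Besides VRK1, all members were named, annexins, partners and EF-hand genes when called or among the 3 largest differences (the 3 highest and 3 lowest between lines), and the 5 genes nearest to S100A4. Alternatives covered the filter, probe rule, spread prior, background, normalization, a replicate block and leaving out each array. Figures were drawn with matplotlib 3.10.9.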

Additional observations from a re-analysis of the deposited data

How the results depend on the processing

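With 2 arrays per group and signal near background for S100P and S100A3 in HT1080, precision is limited. The alternatives listed for these tests were all run. In 0 of them did the S100 members called under siVRK1 rise above 0, except for the replicate block within each line, chosen after seeing the data, which called 1 member in MDA-MB-231 (S100P, 1.06 log2, SE 0.10, limma adjusted p = 0.0018) and 1 on average (S100P, 0.57, SE 0.07, adjusted p = 0.0029). Replicate numbers were not taken as pairs, since same-numbered arrays deviated together in MDA-MB-231 (r = 0.485 over genes) but not in HT1080 (r = -0.0485). That block gave 297 genes in MDA-MB-231 (94 without it), 66 in HT1080 (29), 501 on average (240) and 3 for the difference between lines (0), and 1 replicate block over all arrays gave 16 in HT1080. After background subtraction 26, 12 and 126 genes were called (MDA-MB-231, HT1080 and average), and the S100A4 line difference in control cells was -7.25 log2. With a line's 4 arrays alone 1 gene was called in MDA-MB-231 against 108 in HT1080, and VRK1 in MDA-MB-231 (-1.28) was not called (adjusted p = 0.244). The stricter filter left 3206 genes called between the siVRK1 lines (5209), since fewer were tested. Other causes were not tested. Leaving out each array gave 10 to 107 genes in MDA-MB-231, 0 to 39 in HT1080, 23 to 273 on average, 0 to 1 for the difference between lines and 3592 to 5009 between the siVRK1 lines, where 8 to 9 members were called. The lowest counts in MDA-MB-231 (10 and 10) and on average (26 and 23) came without HT1080 control replicate 1 and 2, and the count of 1 for the difference without MDA-MB-231 siVRK1 replicate 2. VRK1 ranged from -1.54 to -1.03 in MDA-MB-231, from -1.35 to -1.29 in HT1080 and from -1.43 to -1.17 on average, and the S100A4 control difference from -6.97 to -6.63. Directions turned for small uncalled values when arrays were left out. On average S100A16 ranged from -0.0036 to 0.17 and S100A4 from -0.0097 to 0.16. For the difference between lines S100A13 ranged from -0.20 to 0.24 and S100A2 from -0.11 to 0.36. In HT1080 S100A11 ranged from -0.13 to 0.12, S100A3 from -0.074 to 0.081 and S100A4 from -0.088 to 0.0049. In MDA-MB-231 S100A13 ranged from -0.065 to 0.37, S100A16 from -0.16 to 0.035, S100A2 from -0.13 to 0.34 and S100A6 from -0.25 to 0.20. By probe, S100A13 turned to -0.044 in MDA-MB-231 and to 0.18 between the siVRK1 lines, and with the mean of its probes its difference between lines was -0.011.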

Other observations

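In MDA-MB-231, 16 of 9451 genes lay 1 log2 or more above replicate 1 on the replicate 2 arrays of both the control and the siVRK1 group, a set found after the values were seen and not tested. Besides S100P they include GDF15, a stress-induced cytokine (2.65 and 1.93 log2 higher in the control and siVRK1 groups), PTGS2, the inducible cyclooxygenase (2.39 and 1.73), and CXCL8, interleukin 8 (1.76 and 1.42). The endoplasmic reticulum chaperone genes DNAJB9 (2.20 and 1.40) and HSPA5 (1.82 and 1.23) and the stress-response genes TRIB3 (1.76 and 1.44) and ATF3 (1.25 and 1.22) were also among them. In HT1080 the replicates of these named genes differed by from -0.19 (DNAJB9, siVRK1) to 0.19 (PTGS2, control).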
